A study of Homo sapiens with 4 samples.

Results

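The step from CD31+CD34+ cells sorted on day 4 to CD31+CD43+ cells sorted on day 7 was followed in H1 cells, an established human embryonic stem cell line, taken towards blood in culture. The later population is called HPC and the earlier one HEP, as in the labels. All 17630 genes of the joined tables were compared between these 2 of the 4 libraries of the series. The other 2 libraries, undifferentiated cells (hESC) and APLNR+ cells of day 2 (MES), are quoted where they show what a gene did before. HPC cells had first received activin A at 40 ng/ml and BMP4 at 50 ng/ml for 2 days, next VEGF at 40 ng/ml and bFGF at 50 ng/ml for 2 days, and at last VEGF and bFGF at the same doses with SB-431542, an inhibitor of the activin, NODAL and TGF-beta type I receptors, for 3 days. HEP cells had been through the first 4 days of this schedule and had not met SB-431542. The labels name no genetic change in either group, and all cells come from this 1 line. Time, medium and the antigens of the sort all differ between the 2 populations and cannot be told apart.

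Blood arises in the embryo in part from specialised endothelial cells, which lose their junctions, round up and leave the vessel wall. CD31 is an adhesion protein shared by endothelium and blood, CD34 is a sialomucin of endothelium and immature blood cells, and CD43 is a sialomucin of blood cells that appears as the blood fate is taken. The first wave of blood in the embryo is rich in red cells carrying embryonic and fetal globins, in megakaryocytes, which shed platelets, and in early myeloid cells. GATA1, TAL1, LMO2, RUNX1 and SPI1 are among the transcription factors through which these lineages are set up, and SOX17 belongs to endothelium, mainly of arteries.

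Each population was sequenced once. Replicate errors and tests are therefore missing throughout, and every difference below is one between 2 libraries. The values are the authors' normalised expression values, with 2 decimals and an unknown depth. Differences are given as the log2 of (value + 1) in HPC minus that in HEP, which understates differences of genes with low values. A gene counted as higher or lower in HPC where this difference was at least 1 in size and the higher of its 2 values was 5 or more, and for a gene listed at 0 no fold is given. By this rule 530 genes were higher in HPC (3.01% of all genes) and 630 were lower (3.57%), 6.58% together. Among the 5894 genes at 5 or more in either library the shares were 8.99% and 10.7% (19.7% together), and the median difference was 0.02. The share of called genes that were higher, 45.7%, became 38.3% under median-of-ratios scaling (446 higher, 717 lower) and 30.3% with both libraries brought to a common total (371 higher, 852 lower), so the balance of the 2 directions is not fixed by these data.

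Differences between the libraries also ran with the GC content of the transcripts, a property that library preparation and sequencing can act on. Spearman's rho between the HPC minus HEP difference and GC content was -0.39 across the 5300 genes with a GC value and a mean of 5 or more, a description across genes that share their 2 libraries. Ordered by GC content and divided into 10 bins of 530 genes, the bin of lowest GC (median 41.3%) had a median difference of 0.48, with 85 genes higher and 13 lower in HPC. In the bin of highest GC (64.8%) the median difference was -0.309, and 28 genes were higher and 91 lower. With this trend divided out, 402 genes were higher (2.28%) and 611 lower (3.47%), 5.75% together, and rho was -0.0441. Among the 5826 genes then at 5 or more in either library the shares were 6.9% and 10.5%, 17.4% together. Of the calls on the deposited values, 362 of 530 higher ones and 541 of 630 lower ones were also made with the trend removed. Every gene called below was called both ways unless the text says that its call was lost.

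**Figure D1:**
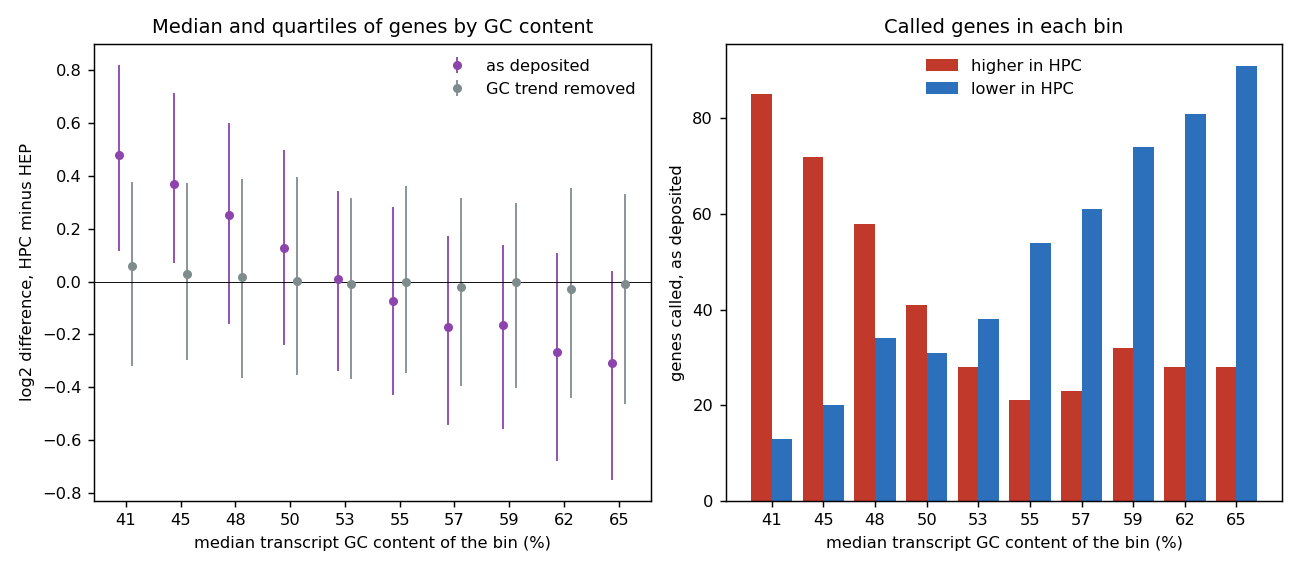
Left, the log2 difference of HPC minus HEP (y axis) in 10 bins of genes ordered by transcript GC content (x axis, median of the bin in percent), as medians (points) with quartiles (bars), before and after removal of the trend. Right, the number of genes called in each bin from the deposited values. The median fell below 0 with rising GC content, and the lowest bin held 85 higher and 13 lower genes where the highest held 28 and 91.

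Among the antigens of the sorts, the RNA of SPN and CD34 differed in the direction of the labels, while that of PECAM1 followed them less clearly. SPN, which encodes CD43, stood at 24.4 in HPC and 0.97 in HEP (log2 difference 3.69). CD34 stood at 18.4 in HPC and 43.6 in HEP (log2 difference -1.20), so the later population still carried CD34 RNA. PECAM1, which encodes CD31, was low in both libraries although both populations were sorted as CD31+. It stood at 7.49 in HPC and 1.83 in HEP (log2 difference 1.58). The other markers of the step went with these: the fetal globin gene HBG2 stood at 1509 in HPC and 4.05 in HEP (log2 difference 8.22), the platelet integrin gene ITGA2B at 283 in HPC and 3.9 in HEP (log2 difference 5.86) and GATA1 at 41.5 in HPC and 0.61 in HEP (log2 difference 4.72), while SOX17 stood at 1.45 in HPC and 26.9 in HEP (log2 difference -3.51). PTPRC, which encodes CD45, the general leukocyte antigen, was at 0.04 in HPC and listed at 0 in HEP. These are bulk values, in which a different share of cells of a type and a different amount of RNA per cell cannot be told apart.

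**Figure D2:**
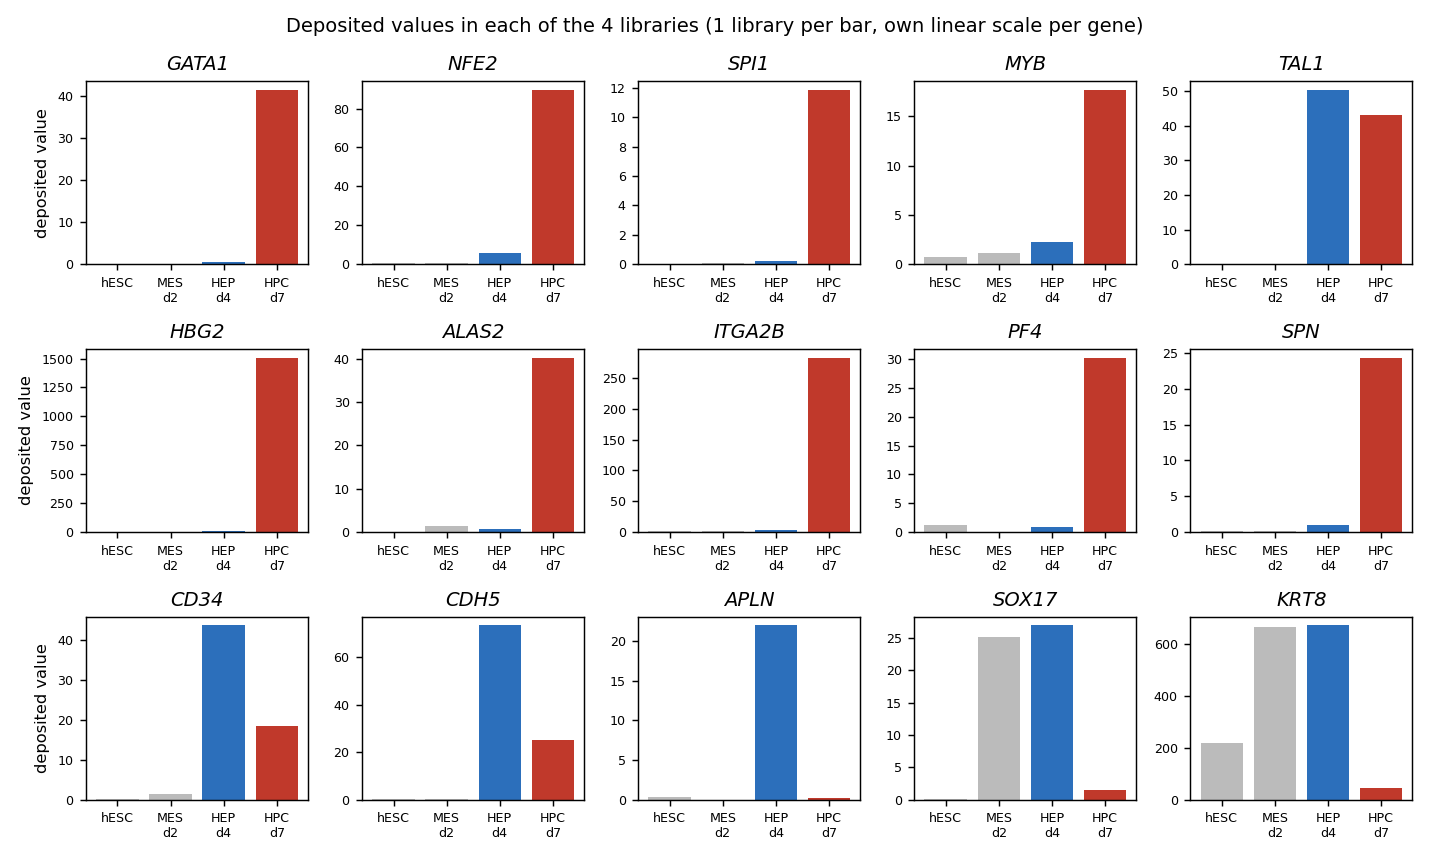
Deposited values (y axis, linear, own scale for each gene) of 15 genes in the 4 libraries in order of culture time (x axis), 1 library per bar, with HEP in blue and HPC in red. GATA1, NFE2, SPI1, MYB, HBG2, ALAS2, ITGA2B, PF4 and SPN stood highest in HPC, TAL1, CD34, CDH5, APLN and SOX17 were highest in HEP, and KRT8 was high in MES and HEP alike.

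Globin genes gave the 5 largest differences of the comparison among genes at 10 or more that were called both ways. This order leans on the pseudocount of 1: with one of 5 the log2 difference of ITGA2B, 5.02, was above that of HBA1, 3.92. Globins carry oxygen in red cells, and the epsilon and zeta chains are made first in the embryo, followed by the gamma chains in the fetus and the beta chain after birth. Of 11 members of the list, 9 were higher in HPC and none was lower, and their values summed to 2940 in HPC and 7.13 in HEP. HBG2 and HBG1, the fetal gamma genes, stood at 1509 and 655 in HPC and at 4.05 and 1.24 in HEP. HBE1, the embryonic epsilon gene, stood at 442 in HPC and 0.77 in HEP (log2 difference 7.97) and HBD, the delta gene, at 170.3 in HPC and 0.09 in HEP (log2 difference 7.30). The alpha-type genes HBA1, HBA2 and HBZ stood at 70.8, 51.0 and 17.3 in HPC and the adult gene HBB at 8.32 in HPC, all listed at 0 in HEP. HBQ1 stood at 14.1 in HPC and 0.92 in HEP (log2 difference 2.98). The remaining members did not pass the rule: HBM was at 2.05 in HPC and listed at 0 in HEP, and AHSP, the chaperone of free alpha globin, was at 0.93 in HPC and 0.06 in HEP. Reads that fit both HBG1 and HBG2, or both HBA1 and HBA2, leave the split within these pairs uncertain. The list's median difference of 5.70 leans on the pseudocount, since 5 members are listed at 0 in HEP, and it was 8.51 with a pseudocount of 0.1 and 3.49 with one of 5.

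Enzymes of heme synthesis differed unevenly. Of 22 heme and iron genes 5 were higher in HPC and none lower, with a median of 0.69, beside 0 over all genes. ALAS2, the red cell form of the first enzyme of the pathway, stood at 40.3 in HPC and 0.73 in HEP (log2 difference 4.58), while its general counterpart ALAS1 stood at 18.1 in HPC and 22.2 in HEP. BLVRB, a biliverdin and flavin reductase abundant in red cells, stood at 116 in HPC and 14.7 in HEP (log2 difference 2.90). UROS, a later enzyme of the pathway, stood at 50.6 in HPC and 16.96 in HEP (log2 difference 1.52), and TFRC, the transferrin receptor that takes up iron, at 16.8 in HPC and 4.77 in HEP (log2 difference 1.62). TFRC had been at 48.6 in hESC and 49.95 in MES, so its HPC value was below that of the stem cells. HMOX1, which breaks heme down, stood at 7.41 in HPC and 3.05 in HEP (log2 difference 1.05).

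Genes of the red cell membrane were partly on. Of 30 members 4 were higher in HPC and none lower (median 0.36): the adhesion protein gene ICAM4 (40.9 in HPC, 3.07 in HEP), the Rh-associated glycoprotein gene RHAG (49.6 in HPC, 9.96 in HEP) and the glycophorin genes GYPB (20.7 in HPC, 1.41 in HEP) and GYPE (17.4 in HPC, 1.94 in HEP). The near-identical sequence of GYPB and GYPE leaves their split uncertain. Genes of the mature membrane and its skeleton were at or near 0 in both libraries, among them SLC4A1, the anion exchanger band 3 (0.02 in HPC, listed at 0 in HEP) and EPB42 (0.32 in HPC, 0.04 in HEP). With the GC trend removed 4 members were higher and 1 lower.

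Platelet and megakaryocyte genes formed the other large block. Of 33 members 13 were higher in HPC (39.4%) and 1 was lower, and their values summed to 847 in HPC and 378 in HEP. PLEK, the protein kinase C substrate pleckstrin, stood at 63.5 in HPC and 0.05 in HEP (log2 difference 5.94). The fibrinogen receptor pair stood at 283 for ITGA2B and 74.0 for ITGB3 in HPC, and at 3.90 and 0.56 in HEP. PF4, a chemokine of platelet granules, stood at 30.3 in HPC and 0.87 in HEP (log2 difference 4.06) and MMRN1, a granule protein that binds factor V, at 12.9 in HPC and 0.34 in HEP (log2 difference 3.38). Some genes of the von Willebrand factor receptor were among the higher members, with GP9 at 8.81 in HPC and 0.34 in HEP. GP1BB stood at 9.33 in HPC and 0.53 in HEP and GP1BA at 7.56 in HPC and 0.65 in HEP. PTGS1, the cyclooxygenase of platelets, stood at 27.8 in HPC and 3.07 in HEP (log2 difference 2.82). Late genes of the lineage were low in both libraries: PPBP stood at 0.69 in HPC and TUBB1 at 1.58 in HPC, both listed at 0 in HEP, and GP6 at 0.25 in HPC and 0.17 in HEP. SLC2A3, a glucose transporter that is also on the glycolysis list, was the lower member, at 67.4 in HPC and 289 in HEP (log2 difference -2.08). The HEP sum of 378 therefore rests mostly on this 1 gene. VWF, shared by endothelium and platelets, stood at 8.99 in HPC and 9.74 in HEP.

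To show the DNA beside these genes, the 300 bases from 250 before to 50 after the transcription start are given for 5 of them, from RefSeq on GRCh38.p14, a later build than the hg19 of the deposited values. They were chosen after the values were seen, among the red cell and platelet genes higher in HPC with a motif match and 1 listed start. Capitals mark a match to the GATA motif AGATAA (ALAS2, HBD, read here as TTATCT on the other strand), to the RUNX motif TGTGGT (GP9, PLEK) or to the ETS motif AGGAAGT (ITGA2B and GP9, read as ACTTCCT on the other strand). In ALAS2 (chrX:55030928-55031227, minus strand) the match begins 127 bases before the start and in HBD (chr11:5234434-5234733, minus strand) 78 bases before it. In ITGA2B (chr17:44389600-44389899, minus strand) the ETS match begins at the start itself. In GP9 (chr3:129060529-129060828, plus strand) the RUNX match begins 143 bases and the ETS match 45 bases before the start, and in PLEK (chr2:68365032-68365331, plus strand) the RUNX match begins 173 bases before it. Each sequence reads 5′ to 3′ on the strand of its gene.
ALAS2: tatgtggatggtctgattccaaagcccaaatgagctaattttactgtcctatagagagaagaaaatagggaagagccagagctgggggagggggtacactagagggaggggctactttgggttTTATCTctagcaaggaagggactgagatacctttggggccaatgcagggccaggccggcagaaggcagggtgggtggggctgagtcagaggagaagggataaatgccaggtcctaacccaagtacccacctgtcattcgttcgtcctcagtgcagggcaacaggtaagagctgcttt
HBD: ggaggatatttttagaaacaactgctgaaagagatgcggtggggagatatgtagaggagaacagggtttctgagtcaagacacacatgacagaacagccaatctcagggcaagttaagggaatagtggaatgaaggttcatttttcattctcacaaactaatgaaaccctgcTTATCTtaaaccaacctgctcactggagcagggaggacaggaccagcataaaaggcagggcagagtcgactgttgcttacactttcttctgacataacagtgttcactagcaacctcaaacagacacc
ITGA2B: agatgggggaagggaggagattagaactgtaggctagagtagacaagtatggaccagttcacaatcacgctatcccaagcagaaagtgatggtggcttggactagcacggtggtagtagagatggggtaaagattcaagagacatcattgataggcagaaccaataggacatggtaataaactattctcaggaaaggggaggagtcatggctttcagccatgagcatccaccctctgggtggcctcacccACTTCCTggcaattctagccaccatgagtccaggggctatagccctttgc
GP9: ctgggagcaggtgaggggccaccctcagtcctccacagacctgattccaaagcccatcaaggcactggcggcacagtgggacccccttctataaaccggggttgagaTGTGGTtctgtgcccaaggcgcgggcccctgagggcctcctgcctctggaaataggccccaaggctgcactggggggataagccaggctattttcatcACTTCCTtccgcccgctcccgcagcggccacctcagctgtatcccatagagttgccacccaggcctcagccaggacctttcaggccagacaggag
PLEK: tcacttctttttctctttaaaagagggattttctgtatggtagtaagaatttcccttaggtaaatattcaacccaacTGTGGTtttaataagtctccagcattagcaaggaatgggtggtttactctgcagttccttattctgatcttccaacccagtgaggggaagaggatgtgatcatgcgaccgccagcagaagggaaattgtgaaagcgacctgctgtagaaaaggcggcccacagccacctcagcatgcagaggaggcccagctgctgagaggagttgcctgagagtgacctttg

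Of the 31 higher genes of the globin, heme, red cell membrane and platelet lists, 14 had a promoter with a single listed start. The GATA motif was in 4 of these (ALAS2, GYPE, HBD and ICAM4), the RUNX motif in 3 (GP1BB, GP9 and PLEK), the ETS motif in 4 (GP9, ITGA2B, TBXAS1 and TFRC) the KLF motif CACACCC in 0, the SOX motif ACAAAG in 2 and the motif CCAAT in 5. Over all genes with such a promoter, AGATAA was found on either strand in 8.68% of the genes higher in HPC (25 of 288) and in 4.93% of the lower ones (15 of 304), beside 3.82% of the 3274 genes at 5 or more in either library and 6.68% of all 9576 promoters. With the GC trend removed these shares were closer, 7.11% of the higher genes (15 of 211) and 6.16% of the lower ones (18 of 292). AGGAAGT was in 12.8% of the higher genes and 4.61% of the lower ones, beside 8.31% and 8.22%, and TGTGGT in 12.2% and 7.24%, beside 8.4% and 10.4%. With the GC trend removed they were in 11.4% and 4.11%, and in 12.8% and 7.88%. CACACCC was in 7.64% of the higher and 5.92% of the lower genes, beside 6.23% and 7.4%, and in 6.64% and 6.51% with the GC trend removed. ACAAAG stood the other way, in 7.99% of the higher and 11.2% of the lower genes, beside 9.19% and 11.6%, as did CCAAT, in 32.3% and 37.5%, beside 39.6% and 36.9%. With the GC trend removed these were 8.06% and 12.3%, and 31.3% and 37.3%. The motifs are short, the promoter sets were not matched for base composition, and a match is a string of letters and not a bound site.

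**Figure D3:**
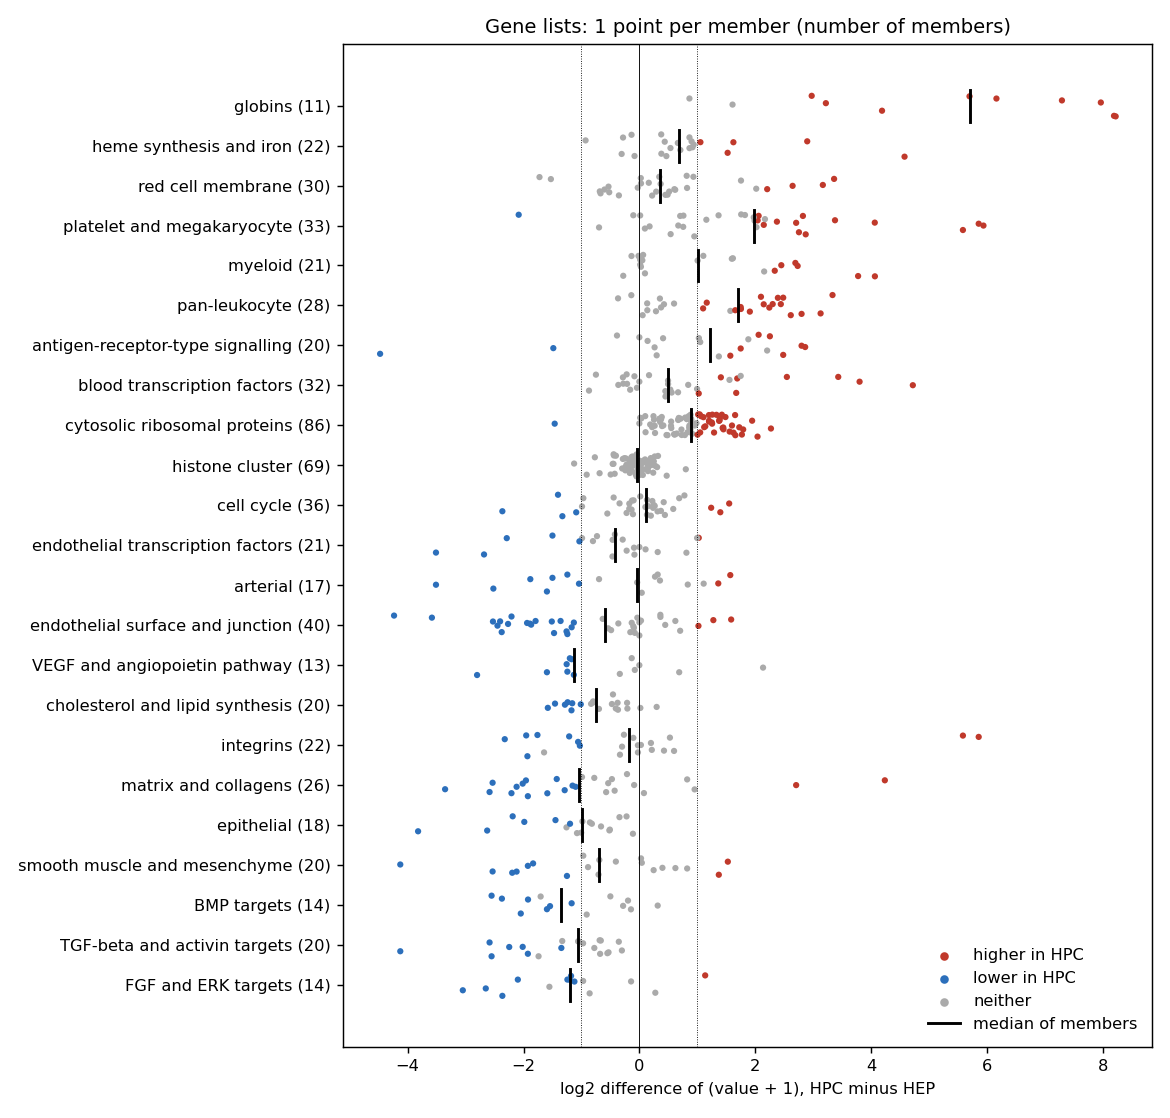
The log2 difference of HPC minus HEP (x axis) for each member of 23 gene lists (rows, with the number of members), with genes higher in HPC in red, lower in blue and neither in grey; the black bar is the median over all members and the dotted lines mark the rule at 1 and -1. Globin, platelet and pan-leukocyte genes lie mostly to the right of 0, endothelial, matrix, BMP, TGF-beta and FGF target genes mostly to the left.

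Among 32 transcription factors of blood formation 8 were higher in HPC (25%) and none was lower, with a median of 0.50. GATA1 is the master factor of red cells and megakaryocytes, and NFE2, which drives late megakaryocyte and globin genes, stood at 89.7 in HPC and 5.5 in HEP (log2 difference 3.80). SPI1, the myeloid factor PU.1, stood at 11.9 in HPC and 0.19 in HEP (log2 difference 3.43). MYB, a factor of immature blood cells, stood at 17.7 in HPC and 2.2 in HEP (log2 difference 2.55) and KLF1, which drives the adult beta globin gene, at 33.01 in HPC and 9.54 in HEP (log2 difference 1.69). MEIS1 (17.04 in HPC, 4.66 in HEP) and GFI1B (20.96 in HPC, 7.28 in HEP), a repressor that acts within the red cell and megakaryocyte lines, were also higher. FLI1, an ETS factor of megakaryocytes and endothelium, was higher (21.98 in HPC, 10.3 in HEP) with the call lost when the GC trend was removed. Factors that start the programme did not pass the rule. TAL1 was at 43.2 in HPC and 50.4 in HEP, LMO2 at 81.5 in HPC and 55.95 in HEP, LYL1 at 56.5 in HPC and 38.05 in HEP, HHEX at 12.1 in HPC and 12.9 in HEP and RUNX1, the factor through which endothelium turns to blood, at 2.43 in HPC and 2.83 in HEP. RUNX1 was below the minimum of 5 in both libraries, so the rule could not call it. TAL1 and LMO2 had been low before, TAL1 at 0.05 in hESC and 0.08 in MES and LMO2 at 0.84 in hESC and 0.35 in MES. GATA2, the GATA factor of progenitors, lay at the edge of the rule, at 52.6 in HPC and 25.9 in HEP (log2 difference 0.997), and was called higher only once the GC trend was removed. GFI1 stood at 10 in HPC and 19.1 in HEP.

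General leukocyte genes went with them, though not PTPRC. Of 28 pan-leukocyte genes 17 were higher in HPC (60.7%) and none was lower (median 1.70, sum 803 in HPC and 199 in HEP), and 16 were higher with the GC trend removed. ARHGDIB, an inhibitor of small GTPases in blood cells, stood at 139 in HPC and 12.8 in HEP (log2 difference 3.33). The phosphatase genes PTPN6 and INPP5D stood at 36.3 and 23.1 in HPC, and at 4.35 and 3.30 in HEP, and the actin bundler LCP1 at 22.8 in HPC and 2.88 in HEP. LST1 was at 7.75 in HPC and listed at 0 in HEP. CD44, the hyaluronan receptor, was higher (25.1 in HPC, 10.7 in HEP) as deposited only.

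Myeloid genes were on at modest values. Of 21 members 6 were higher in HPC and none lower (median 1.01, sum 106 in HPC and 8 in HEP). AIF1, a calcium-binding protein of macrophages, stood at 31.5 in HPC and 0.94 in HEP (log2 difference 4.07), the signalling adaptor genes TYROBP and FCER1G at 17.2 and 11.1 in HPC and at 0.33 and 0.87 in HEP, and lysozyme, LYZ, at 11.6 in HPC and 0.9 in HEP. MS4A3, a gene of granulocyte precursors, stood at 15.6 in HPC and 2.04 in HEP and CD33 at 5.42 in HPC and 0.27 in HEP. Genes of mature granules and monocytes stayed near 0, with MPO at 0.08 in HPC and 0.01 in HEP, CD14 at 0.02 in HPC and 0.01 in HEP and ITGAM at 0.09 in HPC and 0.07 in HEP. AIF1 had been at 9.34 in hESC and 1.6 in MES, so it was already read in the stem cells. Of 13 mast cell, basophil and eosinophil genes 1 was higher, PRG2, the major basic protein gene (15.3 in HPC, 0.77 in HEP), and 4 were listed at 0 in HPC and 7 in HEP. Of 17 lymphoid genes none passed the rule, but only CD79B reached its minimum of 5 in either library. Below 1 in both were 13 of them, and 7 were listed at 0 in HPC and 10 in HEP. CD79B stood at 15.99 in HPC and 30.2 in HEP and CD7 at 3.41 in HPC and 0.17 in HEP.

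Genes of the signalling chain that lymphocytes use behind their antigen receptors, and that platelets and myeloid cells use behind other receptors, split. Of 20 members 7 were higher and 2 lower in HPC (median 1.21). The adaptor LAT stood at 10.9 in HPC and 0.64 in HEP (log2 difference 2.86) and the kinase SYK at 5.39 in HPC and 0.34 in HEP (log2 difference 2.25), and FERMT3, which activates integrins, at 158 in HPC and 37.1 in HEP (log2 difference 2.06). ZAP70, the relative of SYK in T cells, was on the other side at 1.69 in HPC and 58.9 in HEP (log2 difference -4.48), and so was the adaptor GRAP2 (9.87 in HPC, 29.4 in HEP). ZAP70 had been at 0.06 in hESC and 9.1 in MES. SYK was thus higher and ZAP70 lower in HPC. In a list of 18 blood growth factor receptors the 1 higher member was TFRC, the transferrin receptor described above, which is no growth factor receptor. No other member was higher, and 1 was lower with the GC trend removed only. KIT, the stem cell factor receptor, stood at 2.57 in HPC and 2.14 in HEP. EPOR, the erythropoietin receptor, stood at 3.61 in HPC and 5.67 in HEP.

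**Figure D4:**
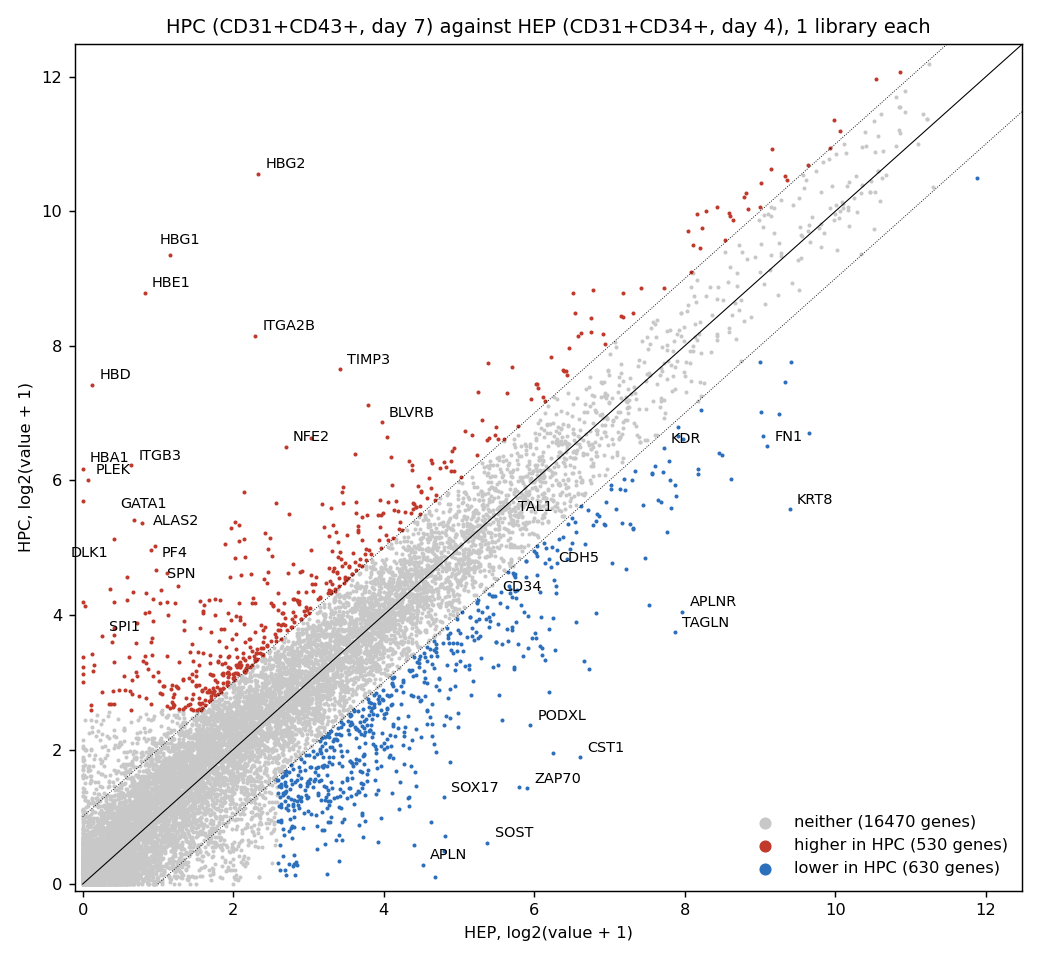
Each of 17630 genes by its log2(value + 1) in HEP (x axis) and in HPC (y axis), with the 530 genes higher in HPC in red, the 630 lower in blue and the others in grey; the solid line is equality and the dotted lines a difference of 1. Globin genes, ITGA2B, PLEK and ITGB3 stand farthest above the line, and SOST, CST1, ZAP70, APLN, TAGLN, APLNR and KRT8 far below it.

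The 15 largest differences of genes at 10 or more that were called both ways held, beside GATA1 and the globin, platelet and red cell genes above, 3 genes of other kinds. DLK1, a membrane protein of the NOTCH ligand family and an imprinted gene, stood at 34.01 in HPC and 0.33 in HEP (log2 difference 4.72). IGF2, another imprinted growth gene, was outside the 15 but also higher (33.2 in HPC, 3.24 in HEP). TIMP3, an inhibitor of matrix proteases bound to the matrix, stood at 201 in HPC and 9.69 in HEP (log2 difference 4.24), and NCF4, a subunit of the phagocyte oxidase, at 16.5 in HPC and 0.02 in HEP (log2 difference 4.10). The 15 largest in the other direction were of mixed kinds. SOST, an antagonist of WNT signals known from bone, stood at 0.53 in HPC and 40.6 in HEP (log2 difference -4.76), having been at 0.11 in hESC and 0.1 in MES. CST1, a secreted protease inhibitor, stood at 2.7 in HPC and 96.6 in HEP (log2 difference -4.72) and PRR9 at 0.08 in HPC and 24.6 in HEP (log2 difference -4.57), and the zinc finger gene SP6 at 2.86 in HPC and 75.4 in HEP (log2 difference -4.31). These 4 genes, ZAP70, ADAMTSL2 (0.4 in HPC, 26.9 in HEP) and APLN (0.22 in HPC, 21.98 in HEP) stood in HEP at least 2-fold above each other library. The other 8 were high in MES as well. Among them the apelin receptor gene APLNR stood at 15.6 in HPC and 249.8 in HEP (log2 difference -3.92) and had been at 0.57 in hESC and 344 in MES. Its ligand gene APLN had been at 0.32 in hESC and 0.02 in MES, so receptor and ligand were both low in HPC. KRT8 stood at 46.7 in HPC and 673 in HEP (log2 difference -3.82) after 218 in hESC and 666 in MES, and PODXL, a sialomucin of the CD34 family, at 4.15 in HPC and 60.7 in HEP (log2 difference -3.58) after 103 in hESC and 43.1 in MES. The contractile genes ACTC1, TAGLN and TNNC1, the matrix gene TNC and the protease inhibitor SLPI made up the rest, at 1.71, 12.4, 0.89, 0.64 and 0.50 in HPC, against 54.6, 233, 23.9, 27.1 and 20.1 in HEP.

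Many endothelial genes were lower in HPC, while others stood close together in both libraries. Of 40 surface and junction genes 19 were lower (47.5%) and 3 higher (7.50%), with a median of -0.59 and sums of 796 in HPC and 2060 in HEP. EGFL7, a secreted angiogenic factor, stood at 36.6 in HPC and 216 in HEP (log2 difference -2.53), the nitric oxide synthase NOS3 at 4.81 in HPC and 30.7 in HEP (log2 difference -2.45) and MCAM, an adhesion molecule, at 12.9 in HPC and 72.5 in HEP (log2 difference -2.40). VE-cadherin, CDH5, the adhesion protein of endothelial junctions, was lower yet still at 25.1 in HPC and 73.5 in HEP (log2 difference -1.51), and KDR, the main VEGF receptor, at 88.3 in HPC and 210.4 in HEP (log2 difference -1.24). The angiopoietin receptor family gene TIE1 stood at 54.6 in HPC and 59.98 in HEP, ESAM at 21.7 in HPC and 28.2 in HEP and ICAM2 at 113 in HPC and 73.2 in HEP, none past the rule. STAB1, a scavenger receptor (51.2 in HPC, 24.7 in HEP), and CLDN5, a tight junction claudin (5.23 in HPC, 1.57 in HEP), were higher in HPC beside PECAM1. Of the 40 members 1 was listed at 0 in HPC and 1 in HEP. The part of remaining endothelial cells in the HPC values was not tested.

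Endothelial transcription factors divided in a similar way. Of 21 members 5 were lower and 1, FLI1, was higher (median -0.42). Beside SOX17, the related SOX7 stood at 1.69 in HPC and 12.2 in HEP (log2 difference -2.29) and KLF2, a factor induced by flow, at 1.04 in HPC and 12.1 in HEP (log2 difference -2.68). ERG, an ETS factor that keeps endothelial identity, stood at 2.64 in HPC and 6.46 in HEP (log2 difference -1.04) and ETS1 at 11.7 in HPC and 14.5 in HEP. Over the families as a whole, 0 of 19 SOX genes were higher and 2 lower (median -0.11), and of 17 KLF genes 1 was higher, KLF1, and 1 lower, KLF2 (median -0.27).

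Arterial genes stood on both sides of the rule. Of 17 members 7 were lower and 2 higher (median -0.04). The NOTCH ligand JAG2 stood at 1.64 in HPC and 14.2 in HEP (log2 difference -2.52), the guidance receptor genes UNC5B and NRP1 at 3.03 and 10 in HPC and at 13.9 and 32.3 in HEP, and the connexin GJA5 at 9.9 in HPC and 24.8 in HEP. DLL4, another NOTCH ligand (20.96 in HPC, 7.54 in HEP), and EFNB2, the ephrin that marks arteries (9.48 in HPC, 2.53 in HEP), were higher in HPC, and the connexin GJA4 was at 26.5 in HPC and 20.5 in HEP. Over 20 genes of the NOTCH pathway 4 were lower and 2 higher (median -0.34). The receptor NOTCH3 stood at 2.84 in HPC and 13.8 in HEP (log2 difference -1.95) and NOTCH1 at 16.9 in HPC and 28 in HEP. Of the target genes, HEY2 stood at 1.4 in HPC and 5.79 in HEP (log2 difference -1.50) and HES4 at 21.3 in HPC and 8.37 in HEP (log2 difference 1.25). The ligands, receptors and targets of this pathway therefore held genes on either side, and with a minimum of 20 in place of 5 the count turned to more higher than lower members.

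Venous, lymphatic and VEGF genes were lower throughout or did not pass. Of 9 venous and lymphatic genes 5 were lower and 0 higher (median -1.26), of which 4 with the GC trend removed. NRP2, a VEGF co-receptor, stood at 10.1 in HPC and 76.5 in HEP (log2 difference -2.80) and EPHB4, the vein receptor for EFNB2, at 32.5 in HPC and 89.9 in HEP (log2 difference -1.44). FLT4, the receptor for VEGF-C, was lower (7.01 in HPC, 18.1 in HEP) as deposited only. Of 13 VEGF and angiopoietin genes 7 were lower and 0 higher (median -1.13), and 5 were lower with the trend removed. FLT1, a decoy receptor for VEGF, stood at 23.4 in HPC and 52.5 in HEP (log2 difference -1.13). VEGF was in the medium of both populations.

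SB-431542 was in the culture of HPC and not of HEP, so genes driven by activin and TGF-beta were read next. Of 20 TGF-beta and activin targets 7 were lower in HPC and none was higher (median -1.05), and 6 were lower with the GC trend removed. SMAD7, an inhibitory SMAD switched on by the pathway, stood at 1.54 in HPC and 13.9 in HEP (log2 difference -2.55), and the matrix genes FN1 and COL4A1 at 90.0 and 38.3 in HPC and at 545 and 158 in HEP. TGIF1 was at 10.9 in HPC and 29.4 in HEP. Several of these targets are endothelial, matrix or contractile genes as well. BMP targets, whose receptors the inhibitor is not known to block, were lower to a similar count: 7 of 14 lower and none higher (median -1.36). ID1, ID2 and ID3, which hold back differentiation factors, stood at 100.2, 28.3 and 83.8 in HPC, against 523, 64.9 and 350 in HEP. BMP4 itself stood at 1.74 in HPC and 20.5 in HEP (log2 difference -2.97), after 0.93 in hESC and 102 in MES, and the endothelial type I receptor gene ACVRL1 at 11.9 in HPC and 38.01 in HEP (log2 difference -1.6). Of 20 receptors and ligands of the TGF-beta, activin and BMP families 3 were lower and none higher (median -0.35), and 5 were lower with the GC trend removed (median -0.59). The lists share genes, and no library at day 7 without the inhibitor was analysed here, so its part was not tested.

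Many targets of FGF and ERK signals were lower in HPC. Both populations had been given bFGF. Of 14 members 8 were lower and 1 higher in HPC (median -1.19), and 9 were lower with the GC trend removed. IER3 stood at 1.43 in HPC and 19.1 in HEP (log2 difference -3.05), the ETS factor ETV4 at 4.06 in HPC and 30.8 in HEP (log2 difference -2.65) and cyclin D1, CCND1, at 11.6 in HPC and 63.8 in HEP (log2 difference -2.37). The feedback inhibitors SPRY4 and DUSP6 stood at 2.23 and 11.6 in HPC and at 12.8 and 28.1 in HEP. EGR1, an immediate early factor, was the higher member at 7.42 in HPC and 2.83 in HEP (log2 difference 1.14). Of 13 WNT targets 2 were lower, CCND1 and SP5 (2.78 in HPC, 15.97 in HEP), and 0 higher as deposited, with 1 higher once the GC trend was removed (median -0.79).

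Matrix, adhesion and cytoskeleton genes were lower in many cases. Of 26 matrix and collagen genes 13 were lower (50.0%) and 2 higher (median -1.05, sum 1010 in HPC and 2340 in HEP). COL5A2 stood at 8.92 in HPC and 100.4 in HEP (log2 difference -3.35) and MMP2, a gelatinase, at 10.9 in HPC and 53.99 in HEP (log2 difference -2.21). The higher members were TIMP3 and THBS1 (28.2 in HPC, 3.47 in HEP), a thrombospondin that platelets store. Of 22 integrin genes ITGA2B and ITGB3 were higher and 7 were lower (median -0.19). The lower ones included ITGA5, the fibronectin receptor (39.7 in HPC, 154 in HEP), ITGAV (5.92 in HPC, 22.4 in HEP), ITGB5 (4.67 in HPC, 27.4 in HEP) and, by a small margin, the common beta chain ITGB1 (32.6 in HPC, 68.8 in HEP). Of 24 actin, myosin and thymosin genes 6 were lower and none higher (median -0.29); the intermediate filament gene VIM stood at 176 in HPC and 645 in HEP (log2 difference -1.87) and TMSB10 at 1445 in HPC and 3788 in HEP (log2 difference -1.39).

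Markers of other cell types that the culture could hold were more often lower than higher in HPC. Of 18 epithelial genes 6 were lower and none higher (median -0.99, sum 227 in HPC and 1430 in HEP, 0 listed at 0); beside KRT8, KRT19 stood at 27.7 in HPC and 176 in HEP (log2 difference -2.63) and KRT18 at 129 in HPC and 515 in HEP (log2 difference -1.99), and EPCAM at 1.36 in HPC and 5.44 in HEP. Of 20 early mesoderm genes 6 were lower and none higher (sum 40.7 in HPC and 352 in HEP, 0 listed at 0), led after APLNR by HAND1 (1.16 in HPC, 17.4 in HEP). Of 18 pluripotency genes 4 were lower and none higher (sum 166 in HPC and 386 in HEP), and DPPA2 was listed at 0 in HPC. POU5F1, which encodes OCT4, stood at 15.4 in HPC and 112 in HEP (log2 difference -2.78) and LIN28A at 98.7 in HPC and 167 in HEP, while SOX2 was at 0.05 in HPC and 0.08 in HEP. Of 20 smooth muscle and mesenchyme genes 7 were lower and 2 higher (median -0.70), with sums of 1230 in HPC and 1210 in HEP that rest on S100A4, a calcium-binding protein of many migrating cells (862 in HPC, 298 in HEP); MYH11 and DCN were listed at 0 in HEP, ACTA2 was higher as well (19.2 in HPC, 6.81 in HEP) and COL1A2 lower (53.4 in HPC, 235 in HEP). Of 12 cardiomyocyte genes 3 were lower and 1 higher (sum 217 in HPC and 99.2 in HEP), TNNT2 was listed at 0 in both libraries and NPPA in HPC; MYL7 stood at 0.55 in HPC and 14.1 in HEP (log2 difference -3.29) and NKX2-5 at 1.46 in HPC and 19.3 in HEP (log2 difference -3.04), while the atrial and embryonic light chain MYL4 stood at 213 in HPC and 40.7 in HEP (log2 difference 2.36). Of 15 endoderm and yolk sac genes 4 were lower and none higher (sum 239 in HPC and 493 in HEP), with APOA1 at 2.57 in HPC and 10.7 in HEP and ALB listed at 0 in both libraries. Of 11 neural genes 2, TUBB3 (13.9 in HPC, 93.03 in HEP) and NES (11.7 in HPC, 61.5 in HEP), were lower (sum 25.7 in HPC and 157 in HEP), and 8 were listed at 0 in HPC and 5 in HEP. The part of such cells in the differences was not tested.

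Many genes of the cytosolic ribosome and of the respiratory chain were higher in HPC, and fewer of them once the GC trend was removed. Of 86 cytosolic ribosomal protein genes 35 were higher (40.7%) and 1, RPL39L (10.8 in HPC, 31.5 in HEP), was lower (median 0.88), and 26 were higher with the trend removed. Their share of the summed values was 29.9% in HPC and 19.1% in HEP, after 28.7% in hESC and 23.6% in MES. RPS24 stood at 439.9 in HPC and 90.3 in HEP (log2 difference 2.27), after 1972 in hESC and 1163 in MES, and RPL11 at 991 in HPC and 285 in HEP (log2 difference 1.79), after 2014 in hESC and 1331 in MES. RPL8 did not differ by the rule, at 1339 in HPC and 1308 in HEP. Reads shared with pseudogene copies make the values of single ribosomal protein genes uncertain. Of 78 nuclear genes of the respiratory chain 17 were higher and none lower (median 0.54), 12 with the trend removed, led by the cytochrome oxidase subunits COX7C (456 in HPC, 109 in HEP) and COX7B (206 in HPC, 51.2 in HEP). Of 77 mitochondrial ribosomal protein genes, 72 of them at 5 or more, 8 were higher (10.4%). This share was near the 8.99% of all genes at 5 or more. With the trend removed 1 was higher, MRPS33 (22.7 in HPC, 7.55 in HEP). Of 39 proteasome genes 1 was higher, its call lost with the trend removed, and 1 was lower. These were 2.56% each way, below the 8.99% and 10.7% of all genes at 5 or more. Histone cluster genes made up 15.7% of the sum in HPC and 18.6% in HEP, and none of 69 passed the rule as deposited. HIST2H4A and HIST2H4B, near-identical copies with 1 value between them, stood at 2654 in HPC and 2394 in HEP.

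Other pathways of the cell showed single genes more than blocks. Cholesterol synthesis was an exception: 7 of 20 genes were lower and none higher (median -0.75, 6 lower with the GC trend removed), among them FDPS (217 in HPC, 513 in HEP), MVD (68.3 in HPC, 189 in HEP) and LSS (39.8 in HPC, 121 in HEP). Of 20 genes of peroxide and glutathione defence 4 were higher, among them catalase, CAT (23.9 in HPC, 4.51 in HEP), abundant in red cells, and thioredoxin, TXN (74.2 in HPC, 19.8 in HEP). Of 20 glycolysis genes, 18 of them at 5 or more, 1 was higher, LDHB (292 in HPC, 97.7 in HEP), and 1 lower, SLC2A3. These were 5.0% each way, below the 8.99% and 10.7% of all genes at 5 or more. Of 36 cell cycle genes 3 were higher (8.33%) and 4 lower (11.1%). These shares were near the 8.99% and 10.7% of all genes at 5 or more, a level that 33 of the 36 reached. Their median of 0.12 turned to -0.13 with the GC trend removed and to -0.08 with a common total (3 higher, 6 lower). The inhibitor CDKN1A stood at 77.5 in HPC and 28.8 in HEP (log2 difference 1.40) and cyclin D3, CCND3, at 88.6 in HPC and 29.6 in HEP (log2 difference 1.55), against cyclin D1 on the other side, and the mitotic genes PLK1 and CDC20 stood at 10.2 and 30.3 in HPC and at 28.6 and 77.7 in HEP. PCNA was higher (98.5 in HPC, 41.1 in HEP) and AURKB lower (26.9 in HPC, 58.3 in HEP), both as deposited only. Of 20 immediate early and heat shock genes, which sorting can induce, 3 were higher and 2 lower, but more were lower than higher with a common total. FOS stood at 70.5 in HPC and 19.8 in HEP (log2 difference 1.78) and its partner JUN at 6.95 in HPC and 22.8 in HEP (log2 difference -1.58). Of 14 housekeeping genes 1, B2M, was higher (7.14%), near the 8.99% of all genes at 5 or more.

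Interferon-induced genes and genes of antigen presentation did not go together. Of 16 interferon-induced genes 5 were higher and 2 lower (median 0.29). ISG15, a ubiquitin-like protein, stood at 938 in HPC and 397 in HEP (log2 difference 1.24) and IFI6 at 17.3 in HPC and 1.17 in HEP (log2 difference 3.07), and IFIT2 (6.19 in HPC, 1.04 in HEP) and IFIT3 (5.89 in HPC, 1.3 in HEP) were also higher. The call of IFIT1 (27.6 in HPC, 11.9 in HEP) was lost with the GC trend removed. IRF1, an interferon-induced transcription factor, stood at 1.43 in HPC and 6.42 in HEP (log2 difference -1.61), and IFITM1 was lower (42.3 in HPC, 89.98 in HEP) as deposited only. Of 15 antigen presentation genes 3 were lower and 1 higher (median -0.52). The peptide transporter gene TAP1 stood at 0.91 in HPC and 12.4 in HEP (log2 difference -2.81) and the immunoproteasome subunit PSMB8 at 1.64 in HPC and 8.56 in HEP (log2 difference -1.86). B2M, the partner chain of class I molecules, was the higher member, at 226 in HPC and 74.1 in HEP (log2 difference 1.6).

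Among the remaining families, none of 11 HOXA genes reached 5 in either library, with HOXA10 at 0.04 in HPC and 0.08 in HEP and HOXA13 at 0.01 in HPC and 0.11 in HEP, and none of 9 HOXB genes passed the rule; HOXB4 stood at 7.52 in HPC and 4.51 in HEP and HOXB9 at 6.54 in HPC and 4.6 in HEP. Of 10 fetal and oncofetal RNA regulators and imprinted growth genes DLK1 and IGF2 were higher and none was lower. Of 316 solute carriers 10 were higher and 10 lower (8 and 8 with the GC trend removed, median 0). These were 3.16% each way, near the 3.01% higher and 3.57% lower of all genes. SLC40A1, the iron exporter ferroportin, stood at 9.5 in HPC and 0.77 in HEP (log2 difference 2.57) and SLC18A2, which loads monoamines into granules, at 8.19 in HPC and 0.83 in HEP (log2 difference 2.33). Of 60 RAB GTPases 3 were higher (5.0%) and 2 lower (3.33%), again near the shares of all genes. Their median was 0.06, or -0.03 with the GC trend removed, with more lower than higher under a common total. RAB38 (17.8 in HPC, 0.91 in HEP) and RAB37 (14.97 in HPC, 1.2 in HEP) led the higher ones, both known from granules and related organelles, and RAB17, of epithelial sorting, was lower (0.75 in HPC, 8.24 in HEP).

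The called genes could be set apart by where they had stood in the earlier libraries. The HEP or HPC library enters each of these comparisons, so they are not independent of the calls and are given as a description. Of the 530 higher genes, 237 (44.7%) stood at least 2-fold above each other library in HPC; their median GC content was 55.9%, 0 were ribosomal protein genes, and 223 (94.1%) were also called with the GC trend removed. The globin, platelet and red cell genes named among the 15 largest are of this kind. Another 228 (43.0%) had also been at least 2-fold higher in hESC than in HEP; their median GC content was 44.3%, 34 were ribosomal protein genes, and 101 (44.3%) were also called with the trend removed. For these genes HEP stood below both hESC and HPC, while MES was not compared with HEP in setting them apart. Of the 630 lower genes, 184 (29.2%) stood at least 2-fold above each other library in HEP (median GC 59.9%) and 159 of these were called both ways. A larger number, 334 (53.0%), had stood in MES at least 2-fold above HPC and not 2-fold below HEP, with a median GC content of 57.1% and 310 called both ways. All genes at 5 or more had a median of 53.8%.

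**Figure D5:**
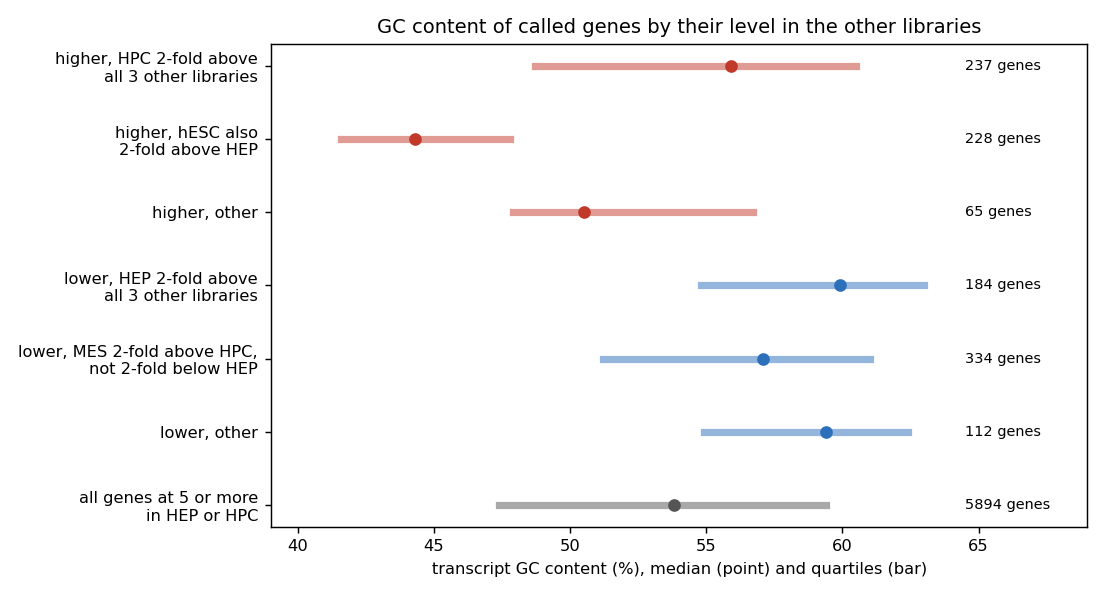
Transcript GC content (x axis, percent; point for the median, bar for the quartiles) of called genes divided by their level in the other libraries (rows, with the number of genes); higher genes in red, lower genes in blue, all genes at 5 or more in grey. The 228 higher genes that were also 2-fold above HEP in hESC have a median of 44.3%, below the 55.9% of the 237 genes highest in HPC and the 53.8% of all genes.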

How the data were processed

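Gene expression was measured by RNA sequencing of 4 libraries of H1 cells (hESC, MES, HEP and HPC), 1 per group, so samples serve as no replicates of each other. Per the labels' protocols, cells past the stem cell stage were isolated by flow cytometry, and Trizol RNA went into TruSeq libraries. Per the submitters' processing notes, the tools were RSEM, Bowtie and BWA on hg19; for versions, roles, annotation and strand the sources used here give nothing. The deposited values are a normalised signal per gene, and whether FPKM or TPM is not stated. Depth is unknown, so no interval or detection floor is given. Reads of overlapping or antisense partners cannot be assigned to one of them.

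Tables of 17634 rows were joined on gene symbol; 4 rows that shared 2 names were dropped, leaving 17630 genes. Differences were taken on log2(value + 1) and called at a size of 1 where the higher library reached 5; no test was run. GC content was the median over protein-coding transcripts of GENCODE 29 for 17429 genes (98.9%), an annotation of another build than hg19. The GC trend was the median difference in 50 GC bins (genes whose mean reached 5), smoothed with a window of 5 bins, and was taken out in equal parts from both libraries. Counts and medians of the 53 gene lists run over all members in the tables. Genes named were the 15 largest differences in each direction among genes at 10 or more called both with and without the GC trend, up to 5 called members per list and direction (the 2 highest where none was called), the sort antigens and the markers; other genes were chosen after their values were seen. Some members that the rule names are not reported here. Members and lists were chosen with earlier results of these data known. Promoters were RefSeq sequences of the 9576 genes with a single start. The steps were tested on simulated data. Python 3.11.15, numpy 2.4.6, pandas 2.3.3 and scipy 1.17.1 were used. Alternatives were pseudocounts, minimums, scalings and removal of the GC trend.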

Additional observations from a re-analysis of the deposited data

How the results depend on the processing

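With 1 library per group no difference here has a replicate check, and the depth that would set a counting error is unknown. No paired analysis was possible because each group is 1 library and the labels give no replicate numbers. There were 8 alternatives. Of the counts, 530 higher genes became 291 with a pseudocount of 5, 804 with no minimum and 229 with a minimum of 20. The 630 lower genes became 378 with a pseudocount of 5 and 264 with a minimum of 20, and otherwise stayed within 1.5 times. Sizes of single genes leaned on the pseudocount. Of 34 genes checked, 29 changed by more than 1.5 times or lost their call with a pseudocount of 5, and 21 did with one of 0.1. None of them reversed, which says little. A change of pseudocount cannot turn the sign of a difference, and 30 of the 34 were picked for large differences called both ways. With a minimum of 20, counts of higher minus lower members moved beyond a set margin in 13 of 53 lists. Higher pan-leukocyte genes went from 17 to 8 there and higher myeloid genes from 6 to 1. The rho with GC content was -0.0441 after the trend was removed, by construction. Median-of-ratios scaling shifted all log2 ratios of HPC to HEP by -0.0831 and a common total by -0.201; a common total without ribosomal protein, histone and globin genes shifted them by 0.0176 and gave 544 higher and 620 lower genes. Counts of higher minus lower members reversed for 3 lists: the NOTCH pathway went to 2 with a minimum of 20 (-2 as reported), and with a common total immediate early and heat shock genes and RAB GTPases each went to -1 (1 as reported); the cause was not tested. With the GC trend removed the median of the interferon-induced list was 0.51 (0.29 as reported, 0.12 with a common total) and that of the actin, myosin and thymosin list -0.48 (-0.29 as reported, -0.49 with a common total).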
